A study of Mus musculus with 35 samples.

Results

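The genes described here are 7 members of the RGS (regulator of G protein signaling) family, Rgs1, Rgs2, Rgs3, Rgs10, Rgs14, Rgs16 and Rgs19, taken from a fixed list of symbols and matched through their Ensembl identifiers. They are 7 of the 48709 genes listed in the count tables, and all 7 were among the 13819 genes that passed the filter on low counts. RNA was sequenced from mouse cytotoxic T lymphocytes (CTLs) in 35 libraries that fall into 7 groups of 5 biological replicates. The CTLs were CD8+ T cells from the spleens of OT-I mice, whose transgenic T cell receptor recognises an ovalbumin peptide, and all of them had been activated with antibodies to CD3 and CD28 and expanded in interleukin-2 (IL-2) before the experiment. The first group was collected at 0 h. The other groups spent a further 24 h in medium of pH 7.4, pH 7 or pH 6.6, each either without IL-2 or with 200 IU/mL of mouse IL-2. The medium was acidified with hydrochloric acid, and all groups carry the same transgenic receptor and the same earlier exposure to IL-2, so no group shows CTLs that never met the cytokine.

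RGS proteins carry a domain that speeds up the hydrolysis of GTP by the alpha subunit of heterotrimeric G proteins and so shortens the signal that a G protein-coupled receptor sends. In lymphocytes these receptors include the receptors for chemokines, sphingosine-1-phosphate, adenosine and prostaglandins, and RGS proteins are best known there for limiting migration towards chemokines. Rgs1, Rgs2, Rgs3 and Rgs16 belong to the R4 subfamily, Rgs10 and Rgs14 to the R12 subfamily and Rgs19 to the RZ subfamily.

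Each library held between 16721319 and 34033340 reads on genes, with a median of 24730020. The summed level of 7 T cell marker genes lay between 3050 and 5070 CPM (read counts scaled to a common library size) in every library. Ms4a1, Lyz2, Csf1r, Ncr1, Hbb-bs and Pf4, which define B cells, myeloid cells, natural killer (NK) cells, red cells and platelets, were at or near 0. Other genes of those lists were not: Fcer1g averaged 19.8 CPM at 0 h, 12.4 CPM at pH 7.4 with IL-2 and 7.1 CPM at pH 6.6 with IL-2 (log2 fold change between the last 2 of -0.82 ± 0.11, SE, adjusted p = 6.78e-08), and Cd79b averaged 4.43 CPM at 0 h and 1.24 to 3.04 CPM at 24 h. The myeloid sum lay between 13.4 and 27.6 CPM at 0 h and between 4.49 and 19 CPM at 24 h, the B cell sum between 3.58 and 6.1 CPM at 0 h and between 1.02 and 3.69 CPM at 24 h, and the CD4 T cell sum between 0 and 5.5 CPM in every library. The sum of the 4 NK cell genes, carried by Eomes and Klrb1c, which CD8+ T cells also express, ran from 596 to 705 CPM at pH 7.4 with IL-2, from 180 to 257 CPM at pH 6.6 with IL-2 and from 122 to 185 CPM in the 24 h groups without IL-2. The sum of the 4 erythroid and platelet genes, carried by Itga2b, ran from 0.851 to 1.59 CPM at pH 7.4 and pH 7 with IL-2 and from 9.1 to 23.6 CPM at pH 6.6. The part of these shifts in the results below was not tested, and in bulk RNA fewer cells of a type and less RNA per cell cannot be told apart.

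The members lie on 5 chromosomes of the GRCm38 build. Rgs2 (chr1:143999338-144004161, minus strand) and Rgs1 (chr1:144242296-144249242, minus strand) are near neighbours, and Rgs16 (chr1:153740349-153745468, plus strand) lies farther along the same chromosome. Rgs3 (chr4:62559847-62704001, plus strand) is the longest of the genes and has 8 annotated coding transcripts. Rgs10 (chr7:128373621-128418758, minus strand), Rgs14 (chr13:55369732-55384687, plus strand) and Rgs19 (chr2:181688419-181693977, minus strand) complete the list. Of the 50-base windows of their annotated transcripts, 88.6% were unique to Rgs3, which shares sequence with Gm5763, 99.4% were unique to Rgs14 and 100% were unique to each of the other members. Of the exon bases of Rgs16, 10.1% are overlapped on the opposite strand by Gm28513, and whether the read counting used strand is not given in the sources used here.

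RefSeq promoter windows were matched for 5 of the 7 members. The 250 bases before the RefSeq start site are shown for Rgs2, Rgs10 and Rgs19, on GRCm38.p6 and in the gene's own direction. That start can differ from the end of the gene position given above. On the minus strand the Rgs10 gene begins at 128418758, so its printed window lies inside the gene. The Rgs2 gene begins at 144004161, so its window overlaps the first bases of the gene. The sequence before the outermost start of Rgs10 was not searched. At pH 7.4, Rgs2 and Rgs10 were the 2 members whose level with IL-2 lay furthest below that without it. Rgs19 was the 1 member called higher with IL-2. Capitals mark the only matches found, which are copies of the short core of the cyclic AMP response element (CRE).
Rgs2, chr1:144004150-144004399, minus strand: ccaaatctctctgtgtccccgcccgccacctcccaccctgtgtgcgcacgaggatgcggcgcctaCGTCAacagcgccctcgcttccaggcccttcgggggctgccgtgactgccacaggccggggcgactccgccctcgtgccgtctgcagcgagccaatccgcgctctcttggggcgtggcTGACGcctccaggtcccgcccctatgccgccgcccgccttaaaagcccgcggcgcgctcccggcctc
Rgs10, chr7:128418173-128418422, minus strand: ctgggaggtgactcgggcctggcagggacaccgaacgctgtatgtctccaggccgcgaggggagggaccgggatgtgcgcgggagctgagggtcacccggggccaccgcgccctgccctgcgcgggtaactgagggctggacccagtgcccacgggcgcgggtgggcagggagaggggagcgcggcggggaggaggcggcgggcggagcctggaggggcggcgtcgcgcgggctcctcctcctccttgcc
Rgs19, chr2:181693978-181694227, minus strand: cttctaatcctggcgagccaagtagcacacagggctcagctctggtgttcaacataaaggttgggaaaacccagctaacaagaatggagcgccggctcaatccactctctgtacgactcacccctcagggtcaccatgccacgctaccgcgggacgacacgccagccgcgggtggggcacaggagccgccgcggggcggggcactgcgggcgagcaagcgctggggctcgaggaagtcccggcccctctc
The search used both strands and covered the full CRE (TGACGTCA), its short core (TGACG, which is contained in the full CRE), the E-box (CACGTG), the GAS motif read by STAT factors (TTCNNNGAA), the FOXO site (GTAAACA) and the AP-1 site (TGANTCA). The Rgs2 window held 2 copies of the short core, which begin 185 and 67 bases before the start, and 17.8% of the 32851 promoter windows of the same length held at least 1. No window of Rgs2, Rgs3, Rgs10, Rgs16 or Rgs19 held any of the other motifs, which occurred in 1.55% (CRE), 6.02% (E-box), 7.02% (GAS), 3.17% (FOXO) and 6.75% (AP-1) of all windows. A match is a description of these letters and not evidence of binding.

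The 7 genes differed in how far their level moved over the 7 conditions. The ratio of the highest to the lowest group mean was 5.6 for Rgs10, 5.44 for Rgs2, 2.52 for Rgs1, 2.48 for Rgs16, 1.97 for Rgs3, 1.57 for Rgs14 and 1.51 for Rgs19. Per length, in RPKM (CPM divided by the length of all annotated exons in kilobases), Rgs10 had the highest mean level at 0 h (73.3 ± 25.5, SD, n = 5) and Rgs2 the lowest (2.32 ± 0.306). At pH 7.4 with IL-2 the highest mean RPKM was instead that of Rgs19 (45 ± 2.31), above Rgs10 (31.9 ± 7.54). That order depended on the length used: per kilobase of the median coding transcript, Rgs10 stood at 96.9 CPM and Rgs19 at 82.5 CPM in the same group.

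**Figure D1:**
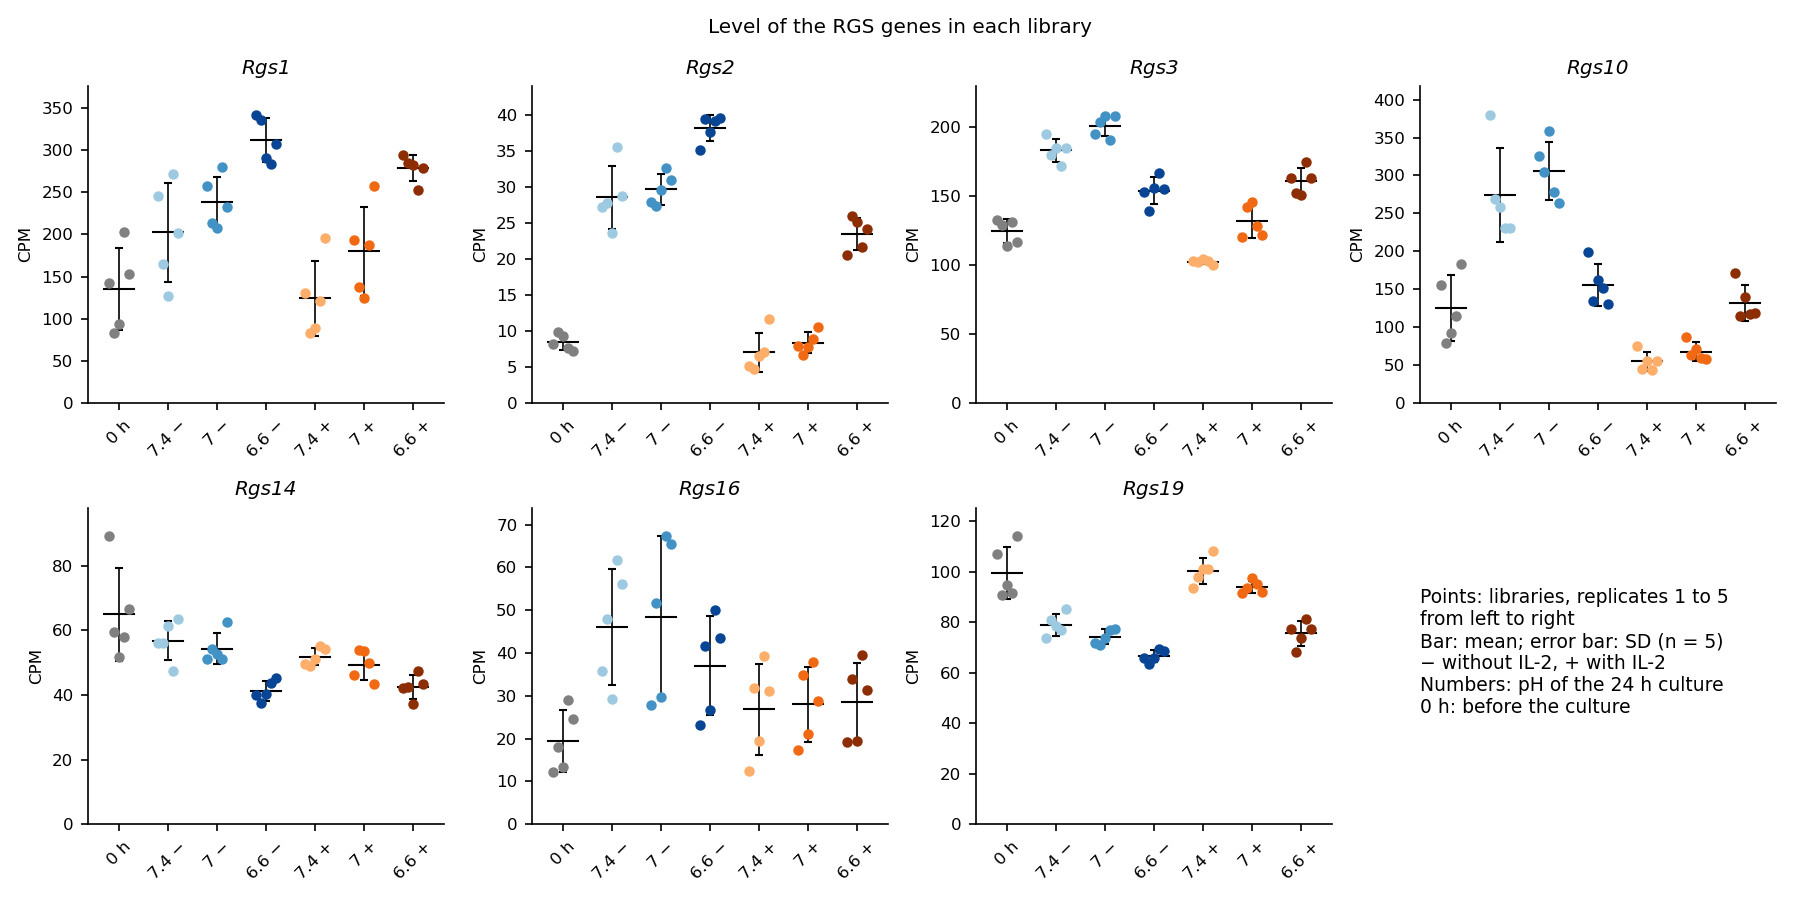
Level of each RGS gene in CPM (linear axis from 0) in every library, by group; points are libraries, the bar is the mean and the error bar the SD of 5 replicates. Rgs2 and Rgs10 are lowest at pH 7.4 with IL-2 (means 7.01 and 54.6 CPM), whereas Rgs19 is lowest at pH 6.6 without IL-2 (66.6 CPM).

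The first question was whether acidic medium changed the expression of these genes in CTLs that received IL-2. At pH 6.6, 4 of the 7 members were higher than at pH 7.4 (Rgs1, Rgs2, Rgs3 and Rgs10), 2 were lower (Rgs14 and Rgs19), and Rgs16 did not pass the test. The test was edgeR's quasi-likelihood F test with a Benjamini-Hochberg adjusted p under 0.05, and it called 76.3% of all genes in this comparison, so that 6 called members of 7 lie near the background. The median log2 fold change of the members was 0.65, beside -0.07 for all genes tested.

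Rgs2, which acts mainly on the Gq class of alpha subunits, showed the greatest rise. Its level at pH 7.4 with IL-2 was 5.07, 4.75, 6.52, 7.11 and 11.6 CPM in replicates 1 to 5, and at pH 6.6 it was 20.5, 25.9, 25.1, 21.7 and 24.1 CPM. The ranges did not overlap, and replicate 5 was the highest library at pH 7.4. The increase was 3.41-fold (log2 fold change 1.77 ± 0.14, SE, adjusted p = 6.16e-13) and was present in 5 of 5 replicates.

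Rgs10, one of the smallest RGS proteins and a regulator of the Gi class, was next. It measured 75, 44.4, 55.2, 42.7 and 55.8 CPM at pH 7.4 and 171, 115, 139, 117 and 119 CPM at pH 6.6 in replicates 1 to 5. Replicate 1 was the highest library in both groups, and the groups did not overlap. The gene rose 2.44-fold (log2 fold change 1.29 ± 0.13, SE, adjusted p = 2.48e-10), with replicate differences from 1.09 to 1.45.

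Rgs1, a restraint on chemokine-driven migration of lymphocytes, rose from 130, 83.5, 89.3, 121 and 196 CPM to 294, 285, 282, 253 and 279 CPM. The SD fell from 44.7 to 15.3 CPM between these groups, as the libraries that were low at pH 7.4 reached the level of the others at pH 6.6. The increase was 2.35-fold (log2 fold change 1.24 ± 0.17, SE, adjusted p = 9.21e-08), and the replicate differences ran from 0.51 to 1.77. Rgs3, which acts on Gi and Gq, rose from 103, 102, 104, 103 and 99.7 CPM to 163, 152, 151, 175 and 163 CPM, with no overlap. This was a 1.57-fold increase (log2 fold change 0.65 ± 0.07, SE, adjusted p = 1.39e-10), and the SD of log2 CPM at pH 7.4 with IL-2 was 0.02.

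Of the members that fell, Rgs19, a regulator of Gi that is also known as GAIP, measured 93.6, 98, 101, 101 and 108 CPM at pH 7.4 and 77.3, 68.1, 73.8, 81.4 and 77.5 CPM at pH 6.6. Every library at pH 6.6 lay below every library at pH 7.4, a 1.33-fold difference (log2 fold change -0.41 ± 0.06, SE, adjusted p = 2.07e-07). Rgs14, a scaffold that also carries Ras-binding domains and a GoLoco motif, was at 49.1 to 55.1 CPM at pH 7.4 and 37.2 to 47.4 CPM at pH 6.6. The difference was small (log2 fold change -0.29 ± 0.10, SE, adjusted p = 0.013), and the call was lost without replicate 2 (adjusted p = 0.0875) and without replicate 3 (adjusted p = 0.0559). Rgs16 ranged from 12.4 to 39.2 CPM at pH 7.4 and from 19.2 to 39.5 CPM at pH 6.6, with a log2 fold change of 0.13 ± 0.10 (SE, adjusted p = 0.23).

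At the intermediate pH of 7, with IL-2, 2 of the 7 members were called against pH 7.4, both higher (Rgs1 and Rgs3), with 19% of all genes called. The members' median log2 fold change was 0.27, against -0.01 for all genes. Rgs3 measured 120, 142, 146, 128 and 122 CPM at pH 7 and did not overlap the group at pH 7.4 (log2 fold change 0.36 ± 0.07, SE, adjusted p = 0.000235). Rgs1 measured 193, 137, 124, 187 and 258 CPM, and its groups overlapped although all 5 replicates rose (log2 fold change 0.54 ± 0.17, SE, adjusted p = 0.0211). The call of Rgs1 was lost without replicate 1 (adjusted p = 0.0752), without replicate 2 (adjusted p = 0.0723) and without replicate 3 (adjusted p = 0.0557), and in the fit without the replicate block (adjusted p = 0.109). It was also lost with a looser filter on low counts (adjusted p = 0.0693). Rgs2 and Rgs10 had log2 fold changes of 0.27 ± 0.15 (adjusted p = 0.202) and 0.32 ± 0.13 (adjusted p = 0.0905), and both passed the threshold when replicate 5 was left out (adjusted p = 0.0273 and 0.0175). From pH 7.4 to 7 to 6.6 with IL-2, Rgs1, Rgs3 and Rgs10 rose at each step in 5 of 5 replicates and Rgs2 in 4 of 5, and Rgs19 fell at each step in 5 of 5.

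The same question was then asked of CTLs cultured without IL-2. At pH 6.6 all 7 members were called against pH 7.4, with Rgs1 and Rgs2 higher and Rgs3, Rgs10, Rgs14, Rgs16 and Rgs19 lower, beside 67% of all genes called. The members' median log2 fold change was -0.25, against -0.03 for all genes. Only in the directions of Rgs1, Rgs2, Rgs14 and Rgs19 did the called differences match those seen with IL-2.

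Rgs10 fell where it had risen with IL-2. It measured 380, 269, 259, 231 and 230 CPM at pH 7.4 and 199, 135, 162, 151 and 130 CPM at pH 6.6, without overlap. Replicate 1 was again the highest library of both groups. The decrease was 1.75-fold (log2 fold change -0.81 ± 0.13, SE, adjusted p = 2.56e-06), and it was -0.62 in the least affected replicate. Rgs3 moved likewise, from 172 to 195 CPM at pH 7.4 down to 139 to 167 CPM at pH 6.6 (log2 fold change -0.25 ± 0.07, SE, adjusted p = 0.00125).

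Rgs1 measured 246, 165, 127, 272 and 202 CPM at pH 7.4 and 342, 336, 291, 284 and 307 CPM at pH 6.6. The groups did not overlap, and the replicate differences ran from 0.06 to 1.20 around a log2 fold change of 0.68 ± 0.17 (SE, adjusted p = 0.000656). Rgs2 went from 27.2, 27.8, 23.6, 35.6 and 28.7 CPM to 35.2, 39.4, 37.6, 39.1 and 39.6 CPM. Its highest library at pH 7.4, replicate 4, lay above the lowest at pH 6.6, and the log2 fold change was 0.42 ± 0.13 (SE, adjusted p = 0.00577). In both cultures Rgs1 rose at each pH step in 5 of 5 replicates.

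Rgs14 fell from 47.5 to 63.4 CPM at pH 7.4 to 37.4 to 45.2 CPM at pH 6.6 (log2 fold change -0.46 ± 0.10, SE, adjusted p = 0.000209), and Rgs19 from 73.7 to 85.1 CPM to 63.4 to 69.5 CPM (log2 fold change -0.25 ± 0.06, SE, adjusted p = 0.000526). Neither gene's groups overlapped. Rgs16, a regulator of Gi and Gq that activated T cells induce, had a log2 fold change of -0.33 ± 0.10 (SE, adjusted p = 0.00327), which rested on pairing the replicates. In the fit without the replicate block its adjusted p was 0.387. At pH 7 without IL-2 edgeR called 0 of the 7 members against pH 7.4, with 1.68% of all genes called. DESeq2 also called 0, 1 member (Rgs3) had an unadjusted p under 0.05 in edgeR, and the log2 fold changes of the members ran from -0.09 (Rgs19) to 0.27 (Rgs1).

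**Figure D2:**
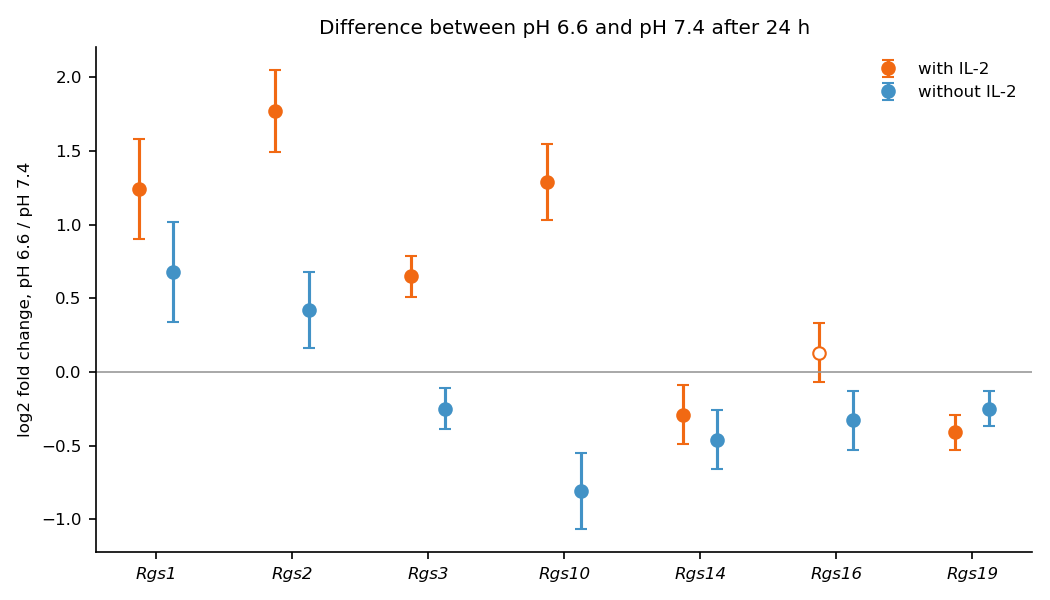
Log2 ratio of the level at pH 6.6 to that at pH 7.4 after 24 h for each RGS gene, with IL-2 (orange) and without IL-2 (blue); error bars are 2 SE, and an open symbol marks an adjusted p above 0.05. Rgs10 lies at 1.29 with IL-2 and -0.81 without, and Rgs3 at 0.65 and -0.25.

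Whether the pH 6.6 effect itself depended on IL-2 was tested with an interaction term, the change with IL-2 minus the change without. It was called for 5 of the 7 members (Rgs1, Rgs2, Rgs3, Rgs10 and Rgs16), with a positive sign in each, beside 67% of all genes called in either direction, and the members' median was 0.56 against 0.04 for all genes. For Rgs10 the term was 2.09 ± 0.19 (SE, adjusted p = 1.5e-11), with all 5 replicates between 1.91 and 2.37. For Rgs2 it was 1.35 ± 0.19 (adjusted p = 2.6e-07) and for Rgs3 0.90 ± 0.09 (adjusted p = 3.84e-10). The replicate values of Rgs3 spanned only 0.79 to 1.01.

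The term of Rgs16 was 0.46 ± 0.14 (adjusted p = 0.00405), and without the replicate block its adjusted p was 0.423. That of Rgs1 was 0.56 ± 0.23 (adjusted p = 0.0373). The Rgs1 call was lost without the block (adjusted p = 0.125) and without replicate 1, 3 or 4 (adjusted p = 0.0677, 0.077 and 0.106). It was also lost with a looser filter on low counts (adjusted p = 0.108) and in a fit to only the groups compared (adjusted p = 0.0551). For Rgs14 (0.18 ± 0.15, adjusted p = 0.284) and Rgs19 (-0.16 ± 0.08, adjusted p = 0.0853) no dependence on IL-2 was detected. The 5 replicates of Rgs19 all lay on the negative side, between -0.20 and -0.11.

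The effect of IL-2 itself was compared at each pH. These comparisons use the same libraries as the pH comparisons, so they are other views of the same values and not further evidence. At pH 7.4, 6 of the 7 members were called, with Rgs19 higher and Rgs1, Rgs2, Rgs3, Rgs10 and Rgs16 lower with IL-2 than without, beside 80.4% of all genes. The members' median log2 fold change was -0.83, against -0.04 for all genes.

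With IL-2 at pH 7.4, Rgs10 was 5.03-fold lower than without it (log2 fold change -2.33 ± 0.14, SE, adjusted p = 1.28e-16), at 42.7 to 75 CPM against 230 to 380 CPM. Rgs2 was 4.15-fold lower (log2 fold change -2.05 ± 0.14, SE, adjusted p = 9.74e-15), and its highest library with IL-2, at 11.6 CPM, lay well under the lowest without, at 23.6 CPM. Rgs3 was 1.79-fold lower with IL-2 than without (log2 fold change -0.84 ± 0.07, SE, adjusted p = 2.27e-13), again with no overlap. Rgs1 (log2 fold change -0.72 ± 0.17, SE, adjusted p = 0.000272) and Rgs16 (-0.83 ± 0.10, adjusted p = 2.91e-09) were lower in each of the 5 replicates, although their groups overlapped. Rgs19 went the other way (log2 fold change 0.34 ± 0.06, SE, adjusted p = 3.4e-06), and Rgs14 did not pass (-0.13 ± 0.10, adjusted p = 0.232).

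At pH 7, Rgs19 was again higher and Rgs1, Rgs2, Rgs3, Rgs10 and Rgs16 lower with IL-2, 6 of the 7 members, beside 77.2% of all genes, and the members' median was -0.61 against -0.04. The log2 fold changes of Rgs10 and Rgs2 were -2.20 ± 0.14 and -1.84 ± 0.14 (adjusted p = 7.17e-16 and 1.27e-13). Rgs1 was the exception in stability, with a log2 fold change of -0.44 ± 0.17 (adjusted p = 0.0169) that was lost without the replicate block (adjusted p = 0.0943) and without replicate 3 (adjusted p = 0.102). A looser filter on low counts also removed this call (adjusted p = 0.066).

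At pH 6.6 only 3 of the 7 members passed, Rgs19 higher and Rgs2 and Rgs16 lower with IL-2, beside 23.7% of all genes, and the members' median was -0.16 against -0.04. Rgs2 measured 20.5 to 25.9 CPM with IL-2 and 35.2 to 39.6 CPM without, so that the groups stayed apart (log2 fold change -0.70 ± 0.13, SE, adjusted p = 0.000163). For Rgs10 the groups overlapped, at 115 to 171 CPM with IL-2 and 130 to 199 CPM without (log2 fold change -0.24 ± 0.13, SE, adjusted p = 0.196), although all 5 replicates were lower with IL-2. A fit to these 2 groups alone called Rgs10 (adjusted p = 0.0025) and Rgs1 (adjusted p = 0.0343) as well. Rgs3 was at 151 to 175 CPM with IL-2 and 139 to 167 CPM without (log2 fold change 0.06 ± 0.07, SE, adjusted p = 0.547). Rgs16 had a log2 fold change of -0.37 ± 0.10 (adjusted p = 0.00559), or an adjusted p of 0.46 without the replicate block. Rgs19 had one of 0.18 ± 0.06 (adjusted p = 0.0239), which was lost without replicate 3 (adjusted p = 0.0839) and without replicate 4 (adjusted p = 0.0882). A looser filter on low counts also removed the Rgs19 call (adjusted p = 0.136). The interaction term given above is also the test of whether the IL-2 effect at pH 6.6 differed from that at pH 7.4. By it the effect was smaller at pH 6.6 for Rgs1, Rgs2, Rgs3, Rgs10 and Rgs16. For Rgs1 and Rgs16 that call was lost in edgeR without the replicate block (adjusted p = 0.125 and 0.423).

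**Figure D3:**
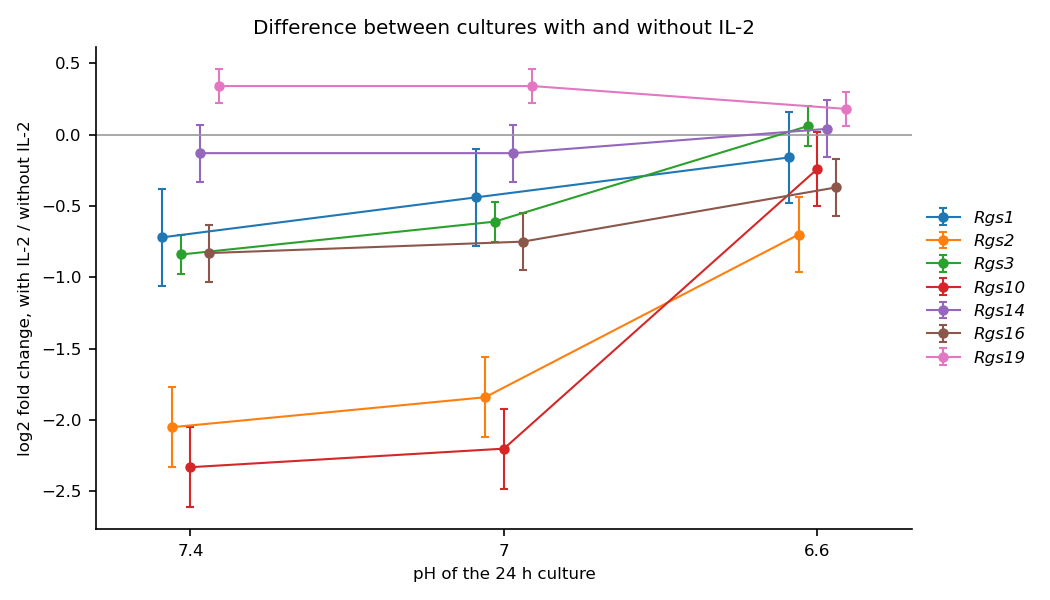
Log2 ratio of the culture given IL-2 to the culture given none, at each of the 3 pH values, for each RGS gene; error bars are 2 SE and lines join the values of 1 gene. Rgs10 goes from -2.33 at pH 7.4 to -0.24 at pH 6.6 and Rgs2 from -2.05 to -0.70, while Rgs14 stays between -0.13 and 0.04.

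Set against the starting cells, the groups at pH 7.4 showed which way the members went over 24 h. These comparisons share the 0 h libraries with each other and the pH 7.4 libraries with those above. Without IL-2, 6 of the 7 members were called against 0 h, with Rgs1, Rgs2, Rgs3, Rgs10 and Rgs16 higher and Rgs19 lower, beside 75.2% of all genes, and the members' median log2 fold change was 0.60 against -0.01. Rgs2 measured 8.17, 9.85, 9.27, 7.57 and 7.26 CPM at 0 h, and its log2 fold change was 1.75 ± 0.14 (SE, adjusted p = 6.46e-13). Rgs16 followed with 1.27 ± 0.10 (adjusted p = 3.89e-13) and Rgs10 with 1.12 ± 0.13 (adjusted p = 4.41e-09), and neither gene's groups overlapped.

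With IL-2, 4 of the 7 members were called against 0 h, Rgs16 higher and Rgs3, Rgs10 and Rgs14 lower, beside 59.9% of all genes, and the members' median was -0.29 against -0.03. Rgs10 had measured 156, 79.5, 92.5, 115 and 183 CPM at 0 h and was 2.31-fold lower after 24 h (log2 fold change -1.21 ± 0.13, SE, adjusted p = 3.01e-09). Its level at 24 h thus lay above that at 0 h without IL-2 and below it with IL-2. Rgs2 had a log2 fold change of -0.30 ± 0.15 (adjusted p = 0.0764) with IL-2, and without replicate 5 the value was -0.57 (adjusted p = 0.000462). Replicate 5 was the highest library of Rgs2 at pH 7.4 with IL-2 (11.6 CPM) and its lowest at 0 h (7.26 CPM). Rgs14 had one of -0.32 ± 0.10 (adjusted p = 0.00773), which was -0.18 without replicate 1 (adjusted p = 0.117), the highest library of this gene at 0 h. Rgs16 had one of 0.44 ± 0.10 (adjusted p = 0.000351), or an adjusted p of 0.226 without the replicate block.

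In the order of the group means, Rgs2 was highest at pH 6.6 without IL-2 (38.2 ± 1.84 CPM, SD, n = 5), and this group did not overlap the next one, pH 7 without IL-2. Further down, pH 6.6 with IL-2 (23.4 ± 2.27 CPM) did not overlap 0 h (8.42 ± 1.11 CPM), and 0 h overlapped pH 7 with IL-2 (8.35 ± 1.46 CPM). Rgs10 was highest at pH 7 and pH 7.4 without IL-2 (306 ± 38.1 and 274 ± 61.7 CPM), clear of pH 6.6 without IL-2 (155 ± 27.5 CPM). Rgs10 at pH 6.6 with IL-2 (132 ± 23.8 CPM) overlapped both that group and 0 h (125 ± 43.6 CPM). The order of Rgs1 was headed by both groups at pH 6.6 (312 ± 26.2 CPM without and 279 ± 15.3 CPM with IL-2), and all 6 pairs of neighbours overlapped. For Rgs19 the clear steps were those between pH 7 with IL-2 (93.9 ± 2.36 CPM) and pH 7.4 without IL-2 (79 ± 4.32 CPM), and between pH 7 and pH 6.6 without IL-2 (74.3 ± 2.89 and 66.6 ± 2.53 CPM).

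The members also differed in how much of their variation followed the replicate number that the labels give each library. For Rgs16, 50.6% of the variation of log2 CPM over the 35 libraries lay between replicate numbers and 45.3% between groups. For Rgs1 the share between replicate numbers was 15.3%, and for Rgs2, Rgs3, Rgs10, Rgs14 and Rgs19 it lay between 0.178% and 4.94%, around the median of all genes of 4.22%. Averaged over the 7 groups, Rgs16 was at 21.1 and 22.7 CPM in replicates 1 and 3 and at 37.1, 46.4 and 40.1 CPM in replicates 2, 4 and 5. Replicate 4 was its highest library in every group, and replicates 1 and 3 were its lowest pair in every group. At pH 7 without IL-2, for example, Rgs16 measured 27.8, 51.7, 29.8, 67.2 and 65.4 CPM. The spread of Rgs1 was tied to the group instead: its SD was 44.7 to 58.9 CPM at 0 h, pH 7.4 and pH 7 with IL-2, 30.4 CPM at pH 7 without IL-2, and 15.3 and 26.2 CPM at pH 6.6.

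**Figure D4:**
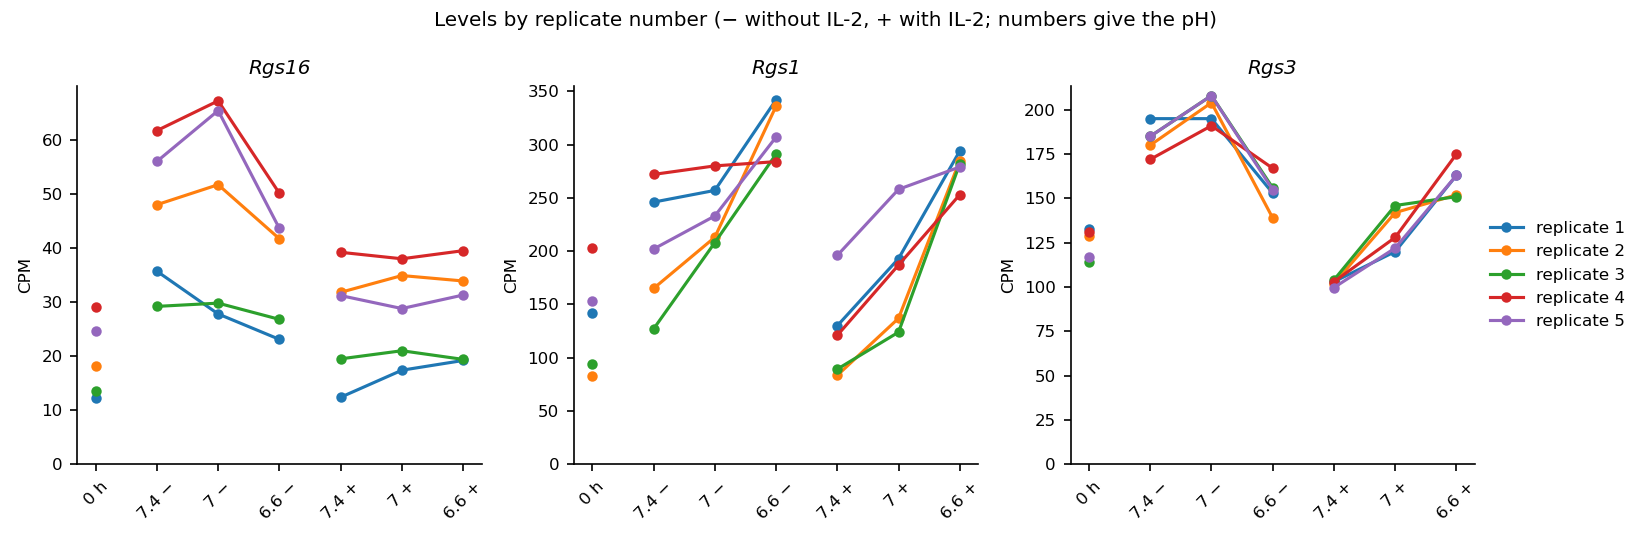
Level of Rgs16, Rgs1 and Rgs3 in CPM (linear axis from 0) in each of the 5 replicates across the 7 groups; lines join the pH steps of 1 replicate within cultures without or with IL-2. Replicates 1 and 3 of Rgs16 stay below the others in every group (means over the groups of 21.1 and 22.7 against 37.1 to 46.4 CPM), those of Rgs1 draw together at pH 6.6 (SD 15.3 CPM with IL-2), and those of Rgs3 lie close throughout.

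Across the 35 libraries, with the mean of each replicate number removed from log2 CPM, Rgs3 and Rgs10 varied together (Pearson r = 0.89), as did Rgs1 and Rgs2 (r = 0.83) and Rgs2 and Rgs3 (r = 0.81), whereas Rgs19 ran against Rgs2 (r = -0.93) and Rgs1 (r = -0.87). These values describe libraries that share conditions, so they carry no test. By the same measure, and counting only genes whose mean log2 CPM reached 3, the genes most like Rgs2 were Cdip1, Parp8 and Zc3hav1 (r = 0.98 each). Those most like Rgs10 were Lancl1, Rsrp1 and Tcta (r = 0.98 each), and those most like Rgs3 were Acot11 (0.97), Acsbg1 (0.96) and Acad10 (0.96). For Rgs1 they were C9orf72 (0.94), Tiparp (0.92) and Guf1 (0.92), and for Rgs16 they were Fam78a, D330041H03Rik and Slc22a15 (0.93 each). For Rgs19 they were Dynll1, Anxa6 and Isoc2a (0.97 each), and for Rgs14 they were Pdlim2 (0.94), Eml3 (0.92) and Ppp2r3d (0.91).

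Of the 14 other RGS genes, 5 had enough reads to be tested (Rgs8, Rgs9, Rgs11, Rgs12 and Rgs18). At pH 6.6 with IL-2, 1 of them was higher and 4 were lower than at pH 7.4, beside 76.3% of all genes called in either direction. Rgs18, best known from platelets and other blood cells, moved against its chromosomal neighbours Rgs2 and Rgs1. It measured 40.3, 37.3, 42.2, 37 and 38.6 CPM at pH 7.4 with IL-2, 11.4, 7.91, 11.4, 15.6 and 15.4 CPM at pH 6.6 with IL-2 and 3.71, 4.55, 4.74, 4.55 and 3.94 CPM at pH 7.4 without IL-2. No group overlapped another, and the log2 fold changes were -1.69 ± 0.14 for pH 6.6 with IL-2 (adjusted p = 2.45e-12) and 3.19 ± 0.16 for IL-2 at pH 7.4 (adjusted p = 1.15e-18). Of the platelet markers, Pf4 was at or near 0 in every group, whereas Itga2b was expressed and moved opposite to Rgs18, with log2 fold changes of 3.43 ± 0.18 for pH 6.6 with IL-2 and -2.61 ± 0.19 for IL-2 at pH 7.4 (adjusted p = 2.51e-17 and 2.22e-14). Its part in the Rgs18 values was not tested. Rgs11 and Rgs8 were lower at pH 6.6 with IL-2 (-1.62 ± 0.35 and -0.82 ± 0.20, adjusted p = 0.000169 and 0.00053), and Rgs11 and Rgs12 were higher with IL-2 at pH 7.4 (1.01 ± 0.34 and 0.98 ± 0.11, adjusted p = 0.00823 and 3.64e-10). Replicate 1 of Rgs11 went the other way in both comparisons. Rgs8 had only 10 to 86 reads per library, and its groups overlapped, at 0.608 to 2.56 CPM at pH 7.4 and 0.577 to 1.48 CPM at pH 6.6 with IL-2.

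Rgs2, Rgs13, Rgs1, Rgs21 and Rgs18 (chr1:144752683-144775435, minus strand) follow one another on the minus strand within 776 kb. Rgs13 reached at most 1 read in any library. Rgs21 had 0 in every library, and a 0 in a single library taken alone still allows an expected count of up to about 3 reads. So these RGS genes included 2 that were lower with IL-2 at pH 7.4 and 1 that was higher, beside 80.4% of all genes called. There were no reads to speak of from Rgs13 and Rgs21. Other genes in this span were not examined.

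**Figure D5:**
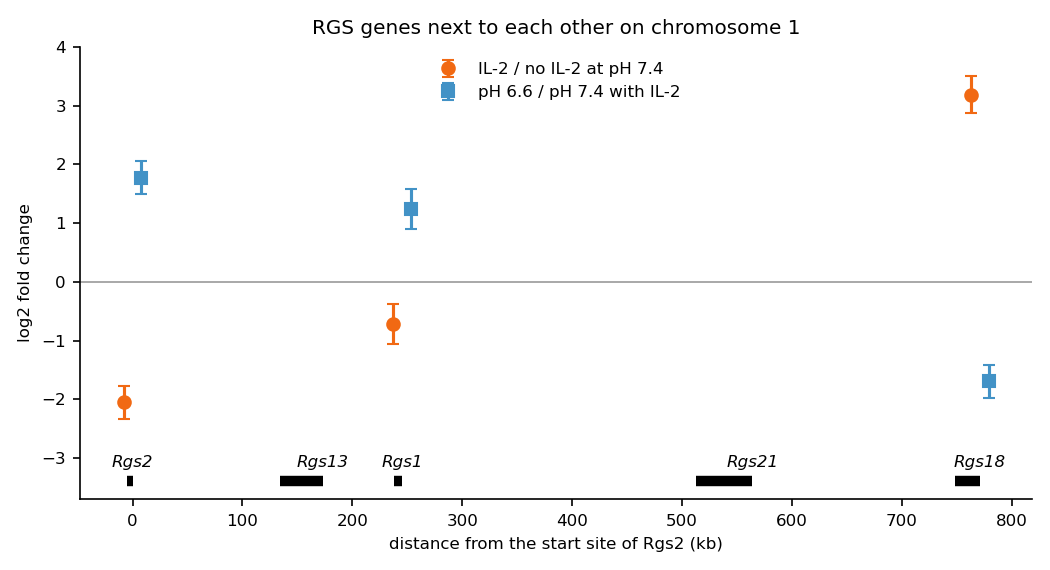
Positions of the 5 RGS genes of the chromosome 1 cluster as distance in kb from the start site of Rgs2 (black bars), with their log2 fold changes for IL-2 against no IL-2 at pH 7.4 (orange circles) and for pH 6.6 against pH 7.4 with IL-2 (blue squares); error bars are 2 SE. Rgs2 and Rgs1 lie below 0 for IL-2 (-2.05 and -0.72) and above it for pH 6.6 (1.77 and 1.24), whereas Rgs18 lies at 3.19 and -1.69.

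The partners of the RGS proteins were examined as fixed lists. Of the 14 tested proteins that carry an RGS domain next to another function, 9 were higher and 3 lower at pH 6.6 with IL-2 (median log2 fold change 0.46), led by Arhgef12 (1.5 ± 0.11, adjusted p = 8.26e-14), Snx13 (1.37 ± 0.11, adjusted p = 2.91e-13) and Grk3, a kinase that desensitises receptors (1.30 ± 0.30, adjusted p = 0.00024). With IL-2 at pH 7.4, 2 were higher and 9 lower (median -0.63), with Grk4 at -2.79 ± 0.17, Arhgef12 at -2.15 ± 0.11 and Snx14 at -1.76 ± 0.09. Grk3 had at most 55 reads in any library, with means of 0.344 CPM at pH 7.4 and 0.858 CPM at pH 6.6 with IL-2. Of 11 tested alpha subunits, a class that includes the targets of RGS proteins, 3 were higher and 2 lower at pH 6.6 with IL-2 (median 0.11). Gnat2 had the greatest fitted change, -3.81 ± 0.50 (adjusted p = 7.61e-08), on a mean of 0.68 CPM at pH 7.4 and 0.0511 CPM at pH 6.6, with at most 19 reads in any library. Gnal rose by 2.93 ± 0.24 and Gnaq by 1.22 ± 0.08 on the log2 scale (adjusted p = 5.79e-13 and 9.35e-15). With IL-2 at pH 7.4, 3 alpha subunits were higher and 6 lower (median -0.46). Gna14 was called lower, at a mean of 0.00827 CPM with IL-2 and 0.67 CPM without, Gnat2 was called higher, at 0.68 and 0.0215 CPM, and Gnal had a log2 fold change of -1.84 ± 0.24 (adjusted p = 3.02e-08).

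Of 10 tested beta and gamma subunits, 4 were higher and 3 lower at pH 6.6 with IL-2 (median -0.09), with Gnb5 higher by 2.0 ± 0.14 and Gnb1 at -0.64 ± 0.05 (adjusted p = 2.7e-14 and 1.34e-12). Gng11, with at most 35 reads in any library, had -1.60 ± 0.61 (adjusted p = 0.0186). With IL-2 at pH 7.4, 3 were higher and 3 lower (median 0.04), with Gng11 at -1.20 ± 0.42, Gng2 at -1.16 ± 0.07 and Gng12 at 1.14 ± 0.07. Of 6 tested other modulators of alpha subunits, 2 were higher and 2 lower at pH 6.6 with IL-2 (median 0.05), with Gpsm1 at 1.84 ± 0.13, Ccdc88a at -1.84 ± 0.22 and Gpsm2 at -1.01 ± 0.13. With IL-2 at pH 7.4, 2 were higher and 4 lower (median -0.57), with Gpsm2 at 3.08 ± 0.14, Ccdc88a at 1.60 ± 0.21 and Gpsm3 at -0.90 ± 0.09. Of the 24 tested G protein-coupled receptors of T cells, 14 were higher and 8 lower at pH 6.6 with IL-2 (median 0.56), and 6 were higher and 16 lower with IL-2 at pH 7.4 (median -1.06). The adenosine receptor Adora2a rose by 3.34 ± 0.15 and the sphingosine-1-phosphate receptor S1pr1 by 3.10 ± 0.13 at pH 6.6 with IL-2 (adjusted p = 2.3e-19 and 3.07e-20), and P2ry10 rose by 2.93 ± 0.15 (adjusted p = 1.7e-17). With IL-2 at pH 7.4 they were lower than without it, with log2 fold changes of -2.36 ± 0.15 and -3.27 ± 0.13 (adjusted p = 4.54e-16 and 1.88e-21). The other adenosine receptor of the list, Adora2b, went the opposite way in both comparisons, with the greatest receptor change for IL-2 at pH 7.4 (5.79 ± 0.37, adjusted p = 1.25e-15, from a mean of 0.072 CPM without IL-2 to 4.56 CPM with it) and -1.61 ± 0.24 at pH 6.6 with IL-2 (adjusted p = 3.18e-07). The shares of genes called in these comparisons are those given above, 76.3% and 80.4%.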

How the data were processed

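RNA from the 35 cultures was made into stranded mRNA libraries and sequenced as single reads. According to the submitters' processing notes, the authors used cutadapt 1.8, STAR 2.5.2b and HTSeq 0.6.1 on the GRCm38 build; the annotation and the strand setting of the counting are not given in the sources used here. The authors deposited raw counts per gene for each library, with no normalization. Rows without a gene were left out: reads with multiple alignments made up 32.8 to 48.3% of all reads in a table, reads with no feature 2.58 to 11.1% and ambiguous reads 0.871 to 0.997%. Ensembl identifiers were matched to GENCODE symbols for 48349 of 48709 genes.

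Genes were filtered with filterByExpr (minimum count 10), scaled by TMM and fitted over all 35 libraries with edgeR 4.0.16 (R 4.3.3; robust quasi-likelihood, 7 groups plus the replicate number as a block). The Benjamini-Hochberg adjustment of p-values ran over all 13819 genes tested, and calls were made at an adjusted p under 0.05. CPM use the TMM library sizes, and log2 CPM a prior count of 2. SE were derived from the fold change and the F statistic. The common biological coefficient of variation was 0.12. The scripts were tested on simulated data. The replicate numbers come from the labels as biological replicates. Same-numbered libraries deviated together from their group means (Pearson r over 0.1 in 95 of 105 pairs, median 0.27; differently numbered pairs, median -0.07). Of 70 pairs of libraries within a group, none agreed within sampling noise (lowest chi-square per degree of freedom 6.38).

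Alternatives were RLE scaling, DESeq2 1.42.0, a looser and a stricter filter, only the groups compared, no replicate block, each replicate left out and an added fold threshold. The members, the lists of pathway and marker genes and the tests were chosen with earlier results of these data known. All 7 members are named. From each other list the text takes the called genes with the greatest absolute log2 fold change, up to 3, for pH 6.6 with IL-2 and for IL-2 at pH 7.4. Rgs18 was described by library after its values were seen.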

Additional observations from a re-analysis of the deposited data

Results flagged for a closer look

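A single library stood apart from its group in 2 of the 49 groups of 5 values examined (7 genes in 7 conditions), where chance alone would mark about 1 in 20. Rgs10 measured 380 CPM in replicate 1 at pH 7.4 without IL-2, beside 230 to 269 CPM in the others of that group. Rgs14 measured 62.6 CPM in replicate 5 at pH 7 without IL-2, beside 51 to 54.3 CPM in the others.

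The change from pH 7.4 to pH 6.6 differed between cultures with and without IL-2 by the interaction term of edgeR for 5 of the 7 genes. By the same term 67% of all genes tested were called, so this count lies near the background. The difference on the log2 scale was 2.09 for Rgs10 (adjusted p = 1.5e-11), 1.35 for Rgs2 (adjusted p = 2.6e-07), 0.90 for Rgs3 (adjusted p = 3.84e-10), 0.56 for Rgs1 (adjusted p = 0.0373) and 0.46 for Rgs16 (adjusted p = 0.00405). Without the replicate block the calls of Rgs1 and Rgs16 were lost (edgeR adjusted p = 0.125 and 0.423). The call of Rgs1 was lost in 6 of the alternative settings. For Rgs10 and Rgs3 the called changes had opposite directions in the presence and absence of IL-2.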

How the results depend on the processing

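Of the values of single members recomputed under the alternatives other than the added fold threshold, which was applied to counts only, 738 kept their side of the threshold, 24 lost the call and 8 gained it. No called value changed sign, while some values near 0 that were not called did. Leaving out 1 replicate moved the number of members called at pH 7 with IL-2 from 2 to between 1 and 4 (1 without replicate 1, 2 or 3 and 4 without replicate 5). For that comparison the number was 1 with the looser filter, 1 with no replicate block and 4 with only the groups compared. For the interaction of pH 6.6 and IL-2 it was 3 instead of 5 with no replicate block, which removed the calls of Rgs1 and Rgs16, and for IL-2 at pH 6.6 it was 5 instead of 3 with only the groups compared. A further alternative added a log2 fold change of 1 or more in size to the rule. The members called of 7 are given with the genes called of 13819 in brackets. For pH 6.6 with IL-2 there were 3 (4753), for pH 7 with IL-2 0 (203) and for pH 6.6 without IL-2 0 (2829). For IL-2 there were 2 (5657) at pH 7.4, 2 (4920) at pH 7 and 0 (516) at pH 6.6. For the interaction there were 2 (4688). Against 0 h there were 1 (2091) for 24 h with IL-2 and 3 (4205) for 24 h without IL-2. The cause was not tested, except that the fold threshold removes calls by construction.

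Over all genes, the number called at pH 7 with IL-2 was 2623, and it was 1660 with no replicate block, 1374 without replicate 2, 1283 without replicate 3 and 4388 with only the groups compared. At pH 7 without IL-2 it was 232, and it was 56 with no replicate block, 35, 90, 141 and 154 without replicate 2, 3, 4 and 5 and 942 with only the groups compared. For IL-2 at pH 6.6 it was 3278, and it was 2119 without replicate 4 and 5369 with only the groups compared. With the added fold threshold the 10 comparisons called between 62 and 5657 genes. The member with the fewest reads, Rgs2, had at least 125 in every library, and the effect of depth on the calls was not tested.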

Other observations

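Rgs11, which is known mainly from neurons and the retina, was singled out after its values were seen. It measured 278, 94.9, 88, 150 and 145 CPM at 0 h in replicates 1 to 5 and 5 to 52.2 CPM in the libraries collected at 24 h. Replicate 1 was the highest library at 0 h and the lowest at pH 7.4 and pH 7 with IL-2, at 6.41 and 5.68 CPM, where the other replicates measured 17.4 to 52.2 CPM. At pH 7.4 the log2 fold change for IL-2 was 1.01 ± 0.34 (SE, edgeR adjusted p = 0.00823), and for pH 6.6 with IL-2 it was -1.62 ± 0.35 (adjusted p = 0.000169). Replicate 1 went the other way in both comparisons, from 9.82 CPM without IL-2 to 6.41 CPM with it at pH 7.4, and from 6.41 CPM at pH 7.4 to 7.8 CPM at pH 6.6 with IL-2.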
